A study of Mus musculus with 19 samples.

Results

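Elovl3, Hsd3b5, Slco1a1, Selenbp2, Susd4, Nat8 and Nox4 are liver genes whose expression depends on pulsatile growth hormone. They were taken by gene symbol, leaving the major urinary protein (Mup) family aside, and all 7 were found among the 24537 genes of the table. Each was measured in hepatocytes, the parenchymal cells that do most of the liver's metabolism, of male C57BL/6J mice of the WT genotype from a single line. The 10 young mice were 5 months old and the 9 old mice 24 months old, and no mouse carried a transgene or received a treatment according to the labels. Livers were perfused to free the hepatocytes and polyadenylated RNA was sequenced, 1 library per mouse. Mice were culled on 2 days that lay 23 days apart, 5 young with 5 old on the earlier day and 5 young with 4 old on the later one. By the birth and cull dates, young mice were 140 or 163 days old and old mice 719 or 742 days old at the earlier and later cull, so cull day and exact age within a group cannot be told apart. Each library is named by the number the labels give it. P-values measure the spread between these libraries, taken as separate mice from their numbers.

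In male rodents the pituitary releases growth hormone in pulses separated by intervals of low hormone, while release in females is more continuous. A pulse acts on hepatocytes through the growth hormone receptor and the kinase JAK2, which activate the transcription factor STAT5B. Genes that need the pulses tend to be higher in male than in female liver, and genes that the pulses repress tend to be higher in female liver. The 7 genes cover lipid elongation (Elovl3), steroid metabolism (Hsd3b5), uptake from blood (Slco1a1), selenium binding (Selenbp2), complement control (Susd4), conjugate acetylation (Nat8) and hydrogen peroxide production (Nox4).

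Libraries held 17381307 to 20287481 counts over genes. All 7 genes passed the filter on low counts, as did 12269 genes in all. Levels are given as CPM, the counts of a library after scaling all libraries to equal totals, and the age comparison is edgeR's quasi-likelihood test with cull day as a covariate and p adjusted over the 12269 genes by the Benjamini-Hochberg method. Young mice 1184, 1186 and 1188, all of the first cull day, stood apart by a high mean log2 CPM of 24 acute-phase genes, 10.1 to 11.0, while the remaining 7 young mice had 7.17 to 7.60 and the old mice 7.57 to 9.38. Hepatocyte markers were abundant in every library, with a mean log2 CPM over 12 genes of 11.5 to 12.2, but 5 of the 12 fell in old mice and 2 rose, with a median log2 difference of -0.11. Apoa1 and Alb, a lipoprotein component and the main plasma protein, rose by 0.41 and 0.47 on the log2 scale, and without young mice 1184, 1186 and 1188 Alb had 0.24 (adjusted p = 0.164, edgeR). Without old mouse 1242 or young mouse 1188 alone the adjusted p of Alb was 0.0528 and 0.0513 in edgeR. Tat, Cps1 and Ass1, enzymes of amino acid breakdown and the urea cycle, had log2 differences of -1.10, -0.64 and -0.61, and the part of this in the results below was not tested. Of the stellate cell markers 14 of 14 rose in old mice, and their summed level was 52.8 to 141 CPM in young and 148 to 526 CPM in old mice. Macrophage markers rose for 13 of 14 genes, with summed levels of 111 to 556 CPM in young and 72.7 to 3567 CPM in old mice. The highest level came from old mouse 1187, and without it 2 of 14 macrophage, 11 of 14 stellate and 9 of 13 endothelial markers rose. Endothelial markers rose for 10 of 13 genes, with 198 to 360 CPM in young and 214 to 685 CPM in old mice. Only 2 of 7 cholangiocyte markers and 1 marker each of T and NK cells, B cells and neutrophils passed the filter, and no marker was at 0 in every library. Of these, the B cell marker Jchain and the neutrophil marker Csf3r rose by 2.14 and 2.10 on the log2 scale (adjusted p = 0.00583 and 0.00937, edgeR). Their young means were 0.490 and 0.464 CPM, and without old mouse 1187 only Jchain passed. For the 7 genes, values with these scores as covariates are given beside the results where they end a call. The score of stellate, endothelial and macrophage markers ran from 2.37 to 3.97 in young and from 2.59 to 5.75 in old mice. It is thus partly tied to age, and a fit that holds both cannot tell them apart. Genes of the other lists were fitted without single mice but not with these scores. In such bulk RNA, fewer cells of a type and less RNA per cell cannot be told apart.

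Selenbp2, Elovl3 and Susd4 fell in old mice, with log2 differences of -2.44 ± 0.43, -0.94 ± 0.30 and -0.56 ± 0.16 (SE, 10 young and 9 old mice). Nat8 rose, by 0.42 ± 0.13 on that scale. Slco1a1, Hsd3b5 and Nox4 did not pass an adjusted p of 0.05, with log2 differences of -0.58, -0.79 and -0.04. The count was therefore 3 of 7 lower, where 14.5% of all genes tested were lower, and 1 of 7 higher, where 16.3% of all genes were higher. The median log2 difference of the 7 genes was -0.58, beside -0.0034 over all genes tested. Selenbp2 was the only gene of the 7 with all 9 old mice below all 10 young mice, a pattern that 0.725% of all genes showed. No gene of the 7 had all old mice above all young mice, as 0.994% of all genes did.

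**Figure D1:**
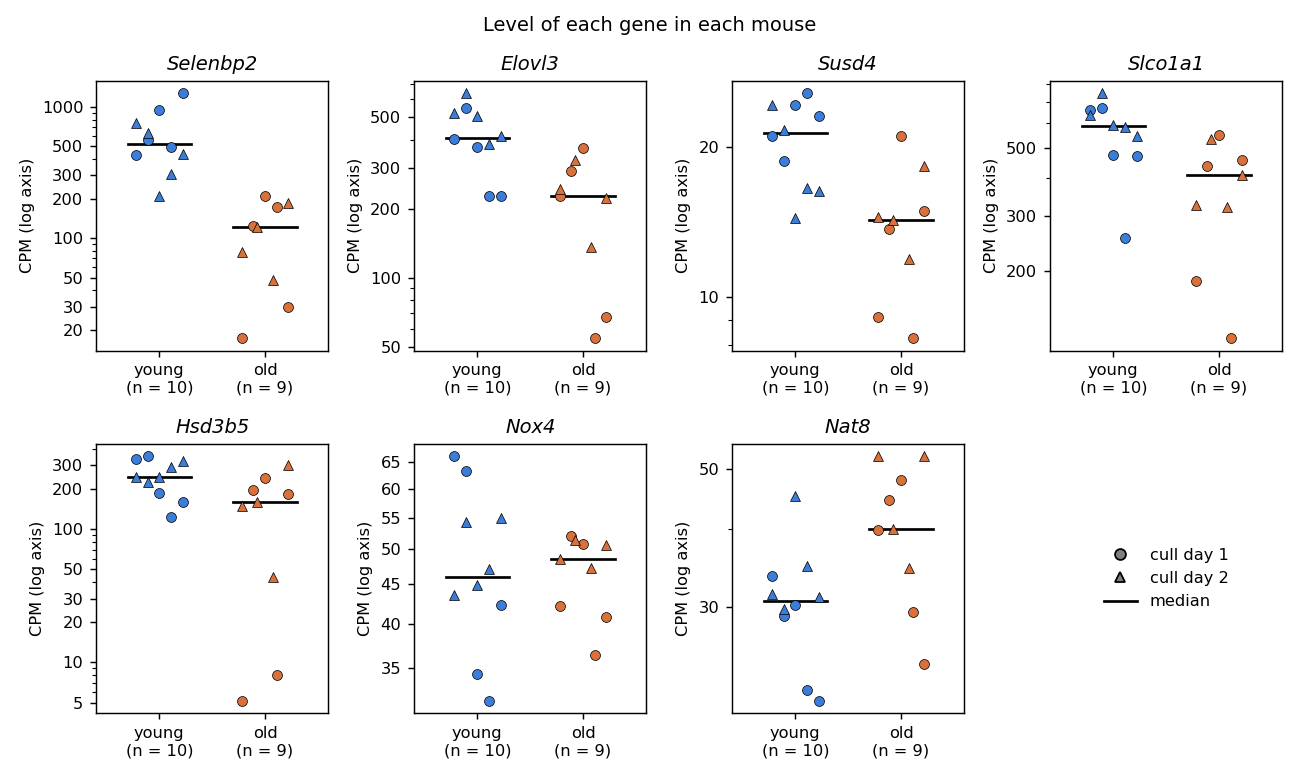
CPM on a log axis of each of the 7 genes in each mouse, with young mice in blue, old mice in orange, circles for the first cull day, triangles for the second and a line at the median of each age. The Selenbp2 values of young and old mice do not overlap, those of the other 6 genes do, and Hsd3b5 spans 5.12 to 303 CPM in old mice.

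**Figure D2:**
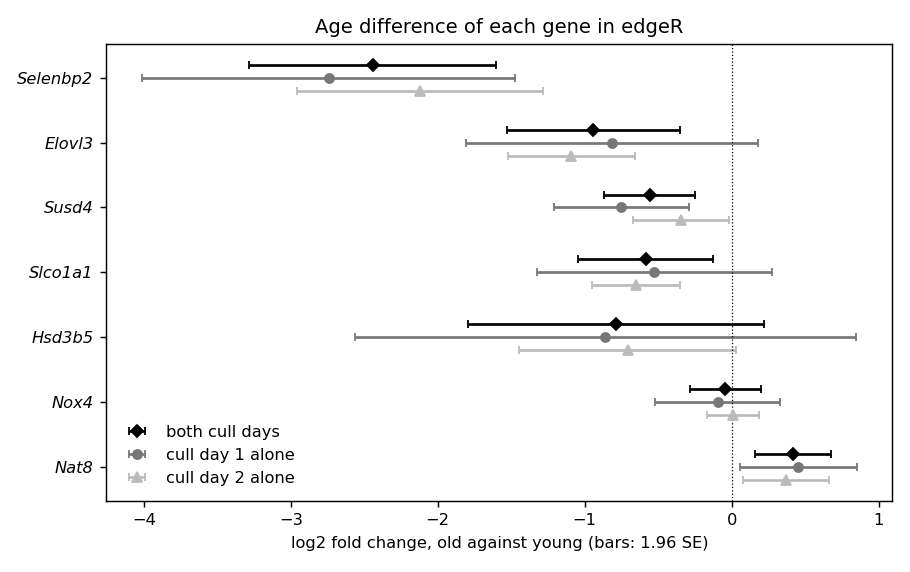
The log2 difference of old against young mice for each of the 7 genes in edgeR, in the fit of all 19 libraries and in fits of each cull day alone. Bars are approximate 95% intervals, set with a normal limit from an SE worked back from the test statistic. They run too narrow for single cull days, which hold few mice. Selenbp2 lies lowest at -2.44, Nat8 lies above 0 at 0.42, and Nox4 lies at -0.04.

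The promoter, from 250 bases before to 50 after the start of transcription, was looked up as background, and the windows with a motif match are printed below. A motif match is a description and not a binding site. RefSeq entries on GRCm38.p6 matched 6 of the 7 genes, Hsd3b5, Slco1a1, Selenbp2, Susd4, Nat8 and Nox4, with a pair of starts each for Susd4 and Nat8. Elovl3 was not searched. The letters searched, on both strands, were TTCNNNGAA, known from STAT5 and BCL6, ATCGAT, known from CUX2 and HNF6, CAAAGTCCA, known from HNF4A, TAGGTCA, known from the REV-ERB and ROR receptors, and the TATA box letters TATAAA. Of the 32851 promoters in the RefSeq table, 8.30%, 0.925%, 0.475%, 2.61% and 13.6% held these letters, in that order. The Selenbp2 promoter (chr3:94693323-94693622, plus strand), of the gene with the deepest fall, held the TATA box letters of the opposite strand at position -103 from the start. The Slco1a1 promoter (chr6:141946913-141947212, minus strand) held the same letters at positions -209 and -99 and the TAGGTCA letters, reversed and complemented, at -134. The Nat8 promoter (chr6:85832230-85832529, minus strand), of the gene that rose, held the CAAAGTCCA letters, reversed and complemented, from base 3 after this entry's start, which lies 389 bases upstream of the start of the Nat8 transcript counted in the table. The Nox4 promoter (chr7:87246399-87246698, plus strand), of the gene whose mean level was nearly equal in both ages, held TTCTAGGAA at position -222, the only match to TTCNNNGAA in the 8 windows of the 6 genes searched. Capitals mark the matches in these 300-base windows, written 5′ to 3′ on the strand of the gene.
Selenbp2: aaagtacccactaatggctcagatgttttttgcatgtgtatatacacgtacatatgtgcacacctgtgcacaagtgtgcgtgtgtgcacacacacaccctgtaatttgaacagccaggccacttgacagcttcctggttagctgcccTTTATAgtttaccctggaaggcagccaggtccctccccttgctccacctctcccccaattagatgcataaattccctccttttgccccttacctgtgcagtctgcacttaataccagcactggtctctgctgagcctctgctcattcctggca
Slco1a1: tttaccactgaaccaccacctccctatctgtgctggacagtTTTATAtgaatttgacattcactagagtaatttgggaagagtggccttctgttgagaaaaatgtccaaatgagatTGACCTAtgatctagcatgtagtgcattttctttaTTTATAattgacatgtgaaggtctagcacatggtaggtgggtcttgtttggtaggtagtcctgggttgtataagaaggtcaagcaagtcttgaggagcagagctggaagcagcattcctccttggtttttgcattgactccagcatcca
Nat8: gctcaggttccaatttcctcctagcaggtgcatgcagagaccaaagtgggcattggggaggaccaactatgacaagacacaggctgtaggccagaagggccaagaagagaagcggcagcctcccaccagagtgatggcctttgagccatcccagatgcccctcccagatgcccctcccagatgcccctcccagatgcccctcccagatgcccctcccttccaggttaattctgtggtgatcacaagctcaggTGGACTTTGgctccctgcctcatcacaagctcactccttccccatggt
Nox4: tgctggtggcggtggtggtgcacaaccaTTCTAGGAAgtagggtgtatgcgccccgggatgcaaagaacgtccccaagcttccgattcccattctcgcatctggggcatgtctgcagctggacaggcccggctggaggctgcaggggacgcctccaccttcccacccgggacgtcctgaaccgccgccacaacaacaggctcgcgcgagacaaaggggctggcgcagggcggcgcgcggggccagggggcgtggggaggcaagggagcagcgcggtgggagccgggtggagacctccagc
The promoters of Hsd3b5 and Susd4 and the other Nat8 start held none of these letters. ATCGAT was in none of the 8 windows searched.

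Selenbp2 encodes a selenium-binding protein and lies on chr3:94693573-94704406, plus strand, in mm10 coordinates of the deposited table (NM_019414, exon length 1681 bases). Its level in young mice was 210 CPM at the lowest, 525 at the median and 1268 at the highest. In old mice the lowest, median and highest values were 17.2, 121 and 208 CPM. The highest old mouse was thus just under the lowest young mouse. The mean was 602.5 ± 315 CPM in young and 109 ± 70.4 CPM in old mice (SD, n = 10 and n = 9), so the old mean was 18.1% of the young mean. The log2 difference of -2.44 had an adjusted p of 0.000591 in edgeR. An exact permutation test that relabelled mice within cull days gave an unadjusted p of 6.3e-05 over its 31752 relabellings, for a difference of mean log2 CPM of -2.66. Taken alone, the first cull day gave a log2 difference of -2.74 (adjusted p = 0.0478, edgeR) and the second -2.12 (adjusted p = 0.00516, edgeR). It passed the threshold under all 14 other settings tried, between -2.80 and -2.12. Of the 100-base windows of the Selenbp2 transcript, 21.2% also occur in Selenbp1, whose product oxidises methanethiol, so a single read from them cannot be told apart between the genes. How far this touches the Selenbp2 level, lowest at 17.2 CPM, is not known. Selenbp1 had 323 ± 57.8 CPM in young mice (SD, n = 10) against 283 ± 52.4 CPM in old ones (SD, n = 9), with a log2 difference of -0.18 with an adjusted p of 0.185 in edgeR. The difference between the age effects of Selenbp1 and Selenbp2 was not tested.

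Elovl3 encodes an elongase of very long chain fatty acids and lies on chr19:46131899-46135694, plus strand (NM_007703, 1873 bases). Young mice had 227, 408 and 636 CPM as the lowest, median and highest values, and old mice 54.5, 226 and 368 CPM. All 9 old mice were below the young median and 5 were below every young mouse. Young mice 1184, 1186 and 1188 had 227 to 372 CPM and the other 7 young mice 381 to 636 CPM, so all 9 old mice were below those 7. Without these 3 mice the log2 difference was -1.14 (adjusted p = 0.0217, edgeR). The mean was 423 ± 133 CPM in young and 215 ± 110 CPM in old mice (SD, n = 10 and n = 9, adjusted p = 0.0243 in edgeR). The exact permutation test gave an unadjusted p of 0.00233 for a difference of -1.12 in mean log2 CPM. On the second cull day the log2 difference was -1.09 (adjusted p = 0.00523, edgeR) and on the first it was -0.81 (adjusted p = 0.321, edgeR). With the score of stellate, endothelial and macrophage markers as a covariate the log2 difference was -0.44 (adjusted p = 0.383, edgeR), so the call ended there. That score is partly tied to age, so this fit cannot tell other cells and age apart. Of the exon bases of Elovl3, 10 overlap Pitx3 on the opposite strand. Elovl3 transcript is also known to cycle over the day, and the labels used here give no hour of cull. Of 19 clock genes tested, 8 fell and 1 rose in old mice, beside 14.5% and 16.3% of all genes, with a median log2 difference of -0.38, and the part of these changes in the fall of Elovl3 was not tested. The clock genes Usp2, Per2, Nr1d2, Tef and Hlf had log2 differences of -1.54, -0.68, -0.42, -0.57 and -0.37. Npas2 rose by 1.03 on the log2 scale (adjusted p = 0.0396, edgeR), a call that ended without any of several single mice, for example at 0.85 without old mouse 1183 (adjusted p = 0.0804, edgeR).

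Susd4 encodes a membrane protein with sushi domains that restrains complement, and lies on chr1:182764906-182895654, plus strand (NM_144796, 2025 bases). The lowest, median and highest young values were 14.4, 21.4 and 25.7 CPM, and those of old mice were 8.25, 14.3 and 21.1 CPM. Here too all 9 old mice were below the young median and 5 were below every young mouse. The mean was 20.6 ± 3.92 CPM in young and 14.0 ± 4.07 CPM in old mice (SD, n = 10 and n = 9, adjusted p = 0.0128 in edgeR). The exact permutation test gave an unadjusted p of 0.00299. Young mice 1184, 1186 and 1188 had 23.1 to 25.7 CPM, and the other 7 young mice had 14.4 to 24.4 CPM. Without these 3 mice the log2 difference was -0.43 (adjusted p = 0.0820, edgeR), and with the score of other cells' markers as a covariate it was -0.56 (adjusted p = 0.0711, edgeR). Neither value passed the threshold, nor did the first cull day alone at -0.75 (adjusted p = 0.0870, edgeR) or the second at -0.35 (adjusted p = 0.170, edgeR).

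Slco1a1 encodes an organic anion transporter of the hepatocyte membrane that takes up bile acids and steroid conjugates, and lies on chr6:141907281-141946962, minus strand (NM_013797, 3951 bases). Young mice had 255, 588 and 748 CPM at the lowest, median and highest, and old mice 121, 407 and 547 CPM. All 9 old mice were below the young median, but only 2 were below every young mouse. The mean was 563 ± 139 CPM in young and 371 ± 147 CPM in old mice (SD, n = 10 and n = 9), and the log2 difference of -0.58 ± 0.23 (SE) had an adjusted p of 0.0644 in edgeR. The lowest young value came from mouse 1186, and the next young value was 468 CPM. Without young mouse 1186 the log2 difference was -0.67 (adjusted p = 0.0304, edgeR), without old mouse 1185 it was -0.70 (adjusted p = 0.0308, edgeR) and without old mouse 1189 it was -0.65 (adjusted p = 0.0491, edgeR). DESeq2 on all libraries gave -0.60 with an adjusted p of 0.0311, and the exact permutation test an unadjusted p of 0.0171. Without young mice 1184, 1186 and 1188 it was -0.76 (adjusted p = 0.0348, edgeR). On the second cull day alone the log2 difference was -0.65 (adjusted p = 0.0114, edgeR), with all 4 old mice below all 5 young mice. With the score of other cells' markers, itself partly tied to age, as a covariate it was -0.06 (adjusted p = 0.886, edgeR), a fit that cannot tell them apart.

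Hsd3b5 encodes a hydroxysteroid dehydrogenase of liver that inactivates steroids, and lies on chr3:98618636-98645534, minus strand (NM_008295, 1601 bases). Young mice had 123, 244 and 352 CPM at the lowest, median and highest, while old mice had 5.12, 159 and 303 CPM. Old mice were spread over a 59.1-fold range and young mice over a 2.86-fold range. The low old values came from mice 1181, 1187 and 1240, with 5.12, 8.03 and 43.4 CPM. The other 6 old mice had 148 to 303 CPM, within the young range of 123 to 352 CPM. Young mice 1184, 1186 and 1188 had 123 to 187 CPM and the remaining young mice 226 to 352 CPM. Old mice 1183, 1189, 1236 and 1238, with 148 to 196 CPM, were thus below all of those remaining young mice. Old mice 1185 and 1242, with 241 and 303 CPM, were within their range. Without young mice 1184, 1186 and 1188 the log2 difference was -0.996 (adjusted p = 0.219, edgeR). The mean was 248 ± 76.7 CPM in young and 143 ± 104 CPM in old mice (SD, n = 10 and n = 9). The log2 difference of -0.79 ± 0.52 (SE) had an adjusted p of 0.254 in edgeR. The exact permutation test on mean log2 CPM gave -1.51 with an unadjusted p of 0.0247. With the score of other cells' markers, itself partly tied to age, as a covariate the log2 difference was -0.03 (adjusted p = 0.976, edgeR), a fit that cannot tell them apart. Of the 100-base windows of the Hsd3b5 transcript, 7.79% also occur in the gene model Gm10681. How far this touches the Hsd3b5 level is not known, as the handling of reads with several matches was not given.

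Nat8 encodes an acetyltransferase of the endoplasmic reticulum that acetylates cysteine conjugates on the way to mercapturic acids, and lies on chr6:85830387-85831890, minus strand (NM_023455, 928 bases). Young mice had 21.2, 30.6 and 45.2 CPM at the lowest, median and highest, and old mice 24.3, 40.0 and 52.4 CPM. Of the 9 old mice, 7 were above the young median and 3 were above every young mouse. The mean was 30.8 ± 6.71 CPM in young and 40.6 ± 9.84 CPM in old mice (SD, n = 10 and n = 9, adjusted p = 0.0236 in edgeR). The exact permutation test gave an unadjusted p of 0.0141. Young mice 1184, 1186 and 1188 had 21.2 to 30.2 CPM and the other 7 young mice 29.0 to 45.2 CPM. Without these 3 mice the log2 difference was 0.33 (adjusted p = 0.107, edgeR) and the exact permutation p was 0.117, and without the cull day term it was 0.40 (adjusted p = 0.0504, edgeR). The first cull day alone gave 0.45 (adjusted p = 0.181, edgeR) and the second 0.37 (adjusted p = 0.107, edgeR), so the call ended under each of these.

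Nox4 encodes an NADPH oxidase that makes hydrogen peroxide without an activating subunit, and lies on chr7:87246649-87398708, plus strand (NM_001285835, 3727 bases). The lowest, median and highest values were 31.7, 46.0 and 66.2 CPM in young and 36.4, 48.6 and 52.1 CPM in old mice. The old values lay wholly within the range of the young values. The mean was 48.3 ± 11.4 CPM in young and 46.7 ± 5.58 CPM in old mice (SD, n = 10 and n = 9). The log2 difference of -0.04 had an adjusted p of 0.808 in edgeR and an approximate 95% interval, from its SE, of -0.28 to 0.20. The sign of this difference was positive under some settings, and none of them passed the threshold. Young mice 1184, 1186 and 1188 were the lowest young mice, with 31.7 to 42.2 CPM, and the other 7 had 43.6 to 66.2 CPM. Without them the exact permutation test gave -0.27 for mean log2 CPM with an unadjusted p of 0.0518.

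The age difference was also tested for a change between cull days. No gene of the 7 passed, with adjusted p between 0.872 and 0.989 in edgeR for the product of age and cull day, and 0% of the 12269 genes passed. At an unadjusted p under 0.05 there were 799 genes, and the smallest adjusted p was 0.542. Fits of a single cull day hold fewer mice, and of the 7 genes only Selenbp2 passed the threshold on the first cull day.

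Levels were set side by side per exon length, as TPM, counts divided by exon length and scaled to a common total, over the genes tested. In young mice Selenbp2 was highest at 633 ± 341 TPM, followed by Elovl3 at 395 ± 122, Hsd3b5 at 271 ± 87.7, Slco1a1 at 250 ± 63.3, Nat8 at 58.0 ± 11.8, Nox4 at 22.7 ± 5.93 and Susd4 at 17.9 ± 3.68 TPM (SD, n = 10). In old mice the order was Elovl3 at 210 ± 106, Slco1a1 at 172 ± 65.9, Hsd3b5 at 161 ± 114, Selenbp2 at 121 ± 78.5, Nat8 at 80.5 ± 16.7, Nox4 at 23.1 ± 2.19 and Susd4 at 12.7 ± 3.20 TPM (SD, n = 9). Selenbp2 thus went from rank 198 among all genes tested in young mice to rank 951 in old mice. In young mice the neighbours Selenbp2 and Elovl3, Hsd3b5 and Slco1a1, and Nox4 and Susd4 differed by less than the larger SD of the pair. In old mice the same held for Elovl3 and Slco1a1, Slco1a1 and Hsd3b5, Hsd3b5 and Selenbp2, and Selenbp2 and Nat8.

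The low old mice were not the same for every gene. Mouse 1187 was among the 3 lowest old mice for every gene except Selenbp2, in which it was among the 3 highest with 173 CPM. Mouse 1240 was among the 3 lowest for every gene except Nox4, and mouse 1181 for 5 genes, the exceptions being Elovl3 and Nat8. Mouse 1189 was among the 3 lowest for Elovl3, Selenbp2, Nat8 and Nox4 and among the 3 highest for Slco1a1 and Susd4. Mouse 1185 was among the 3 highest old mice for all 7 genes. The score of other cells' markers (mean log2 CPM of 41 genes) was 5.75 in mouse 1187, the highest of all mice, 4.11 in mouse 1181, 4.20 in mouse 1240, 3.88 in mouse 1189 and 3.86 in mouse 1185. Old mice without these 5 had scores of 2.59 to 4.61, and the part of the score in the gene levels was not tested mouse by mouse. Mice 1181, 1187 and 1240, the lowest 3 for Hsd3b5, Slco1a1 and Susd4, also had the 3 highest counts of Cyp2b9, a steroid hydroxylase known to be higher in female liver, with 1626.5, 384.5 and 296 counts.

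**Figure D3:**
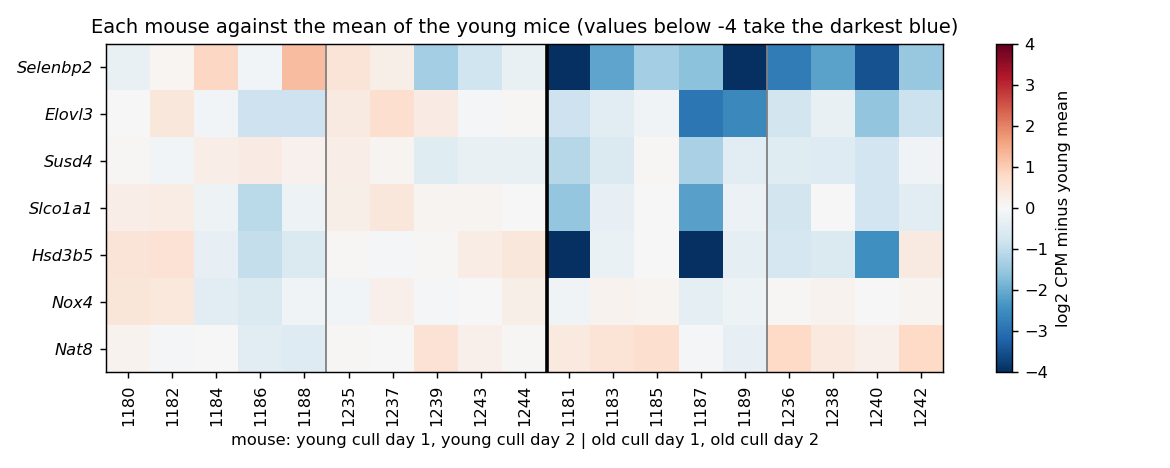
The log2 CPM of each of the 7 genes in each mouse minus the gene's mean over the young mice, with genes as lines of cells, mice as columns and the colour giving the difference, the lowest values sharing the darkest blue. The low cells of old mice 1181, 1187 and 1240 for Hsd3b5 and of all old mice for Selenbp2 stand out.

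Across the 9 old mice all 21 pairs of the 7 genes had a Pearson's r above 0, on log2 CPM centred on cull day, with a median of 0.50 and a range of 0.19 to 0.91. No pair passed after adjustment over the 42 pairs of both ages, and 5 of the 21 pairs had an unadjusted exact permutation p under 0.05. The highest was Hsd3b5 with Susd4, at r = 0.91 (exact permutation p = 0.00278, adjusted p = 0.117) and Spearman's rho = 0.90 (exact permutation p = 0.00660, adjusted p = 0.138), and r was 0.84 without the 2 mice farthest from the median of Hsd3b5. Hsd3b5 with Slco1a1 had r = 0.90 (exact permutation p = 0.0319, adjusted p = 0.164) and rho = 0.95 (exact permutation p = 0.0118, adjusted p = 0.143), with r = 0.82 without the 2 farthest mice. In the 10 young mice 12 of 21 pairs had an r above 0, with a median of 0.33 and a range of -0.64 to 0.88, and again 5 of 21 had an unadjusted p under 0.05 and none passed after adjustment. For Hsd3b5 with Susd4 the young r was -0.55 (exact permutation p = 0.0268, adjusted p = 0.164) and rho -0.55 (exact permutation p = 0.0538, adjusted p = 0.255), with r = -0.44 without the 2 farthest mice. Among the 7 young mice without 1184, 1186 and 1188, 9 of 21 pairs had an r above 0 and the median was -0.02. Whether relations differ between ages was not tested. The share of such pairs among other genes of the same libraries was not computed, so these counts have no background beside them. Old mouse 1187, with the highest score of other cells' markers, stayed in the counts of pairs.

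**Figure D4:**
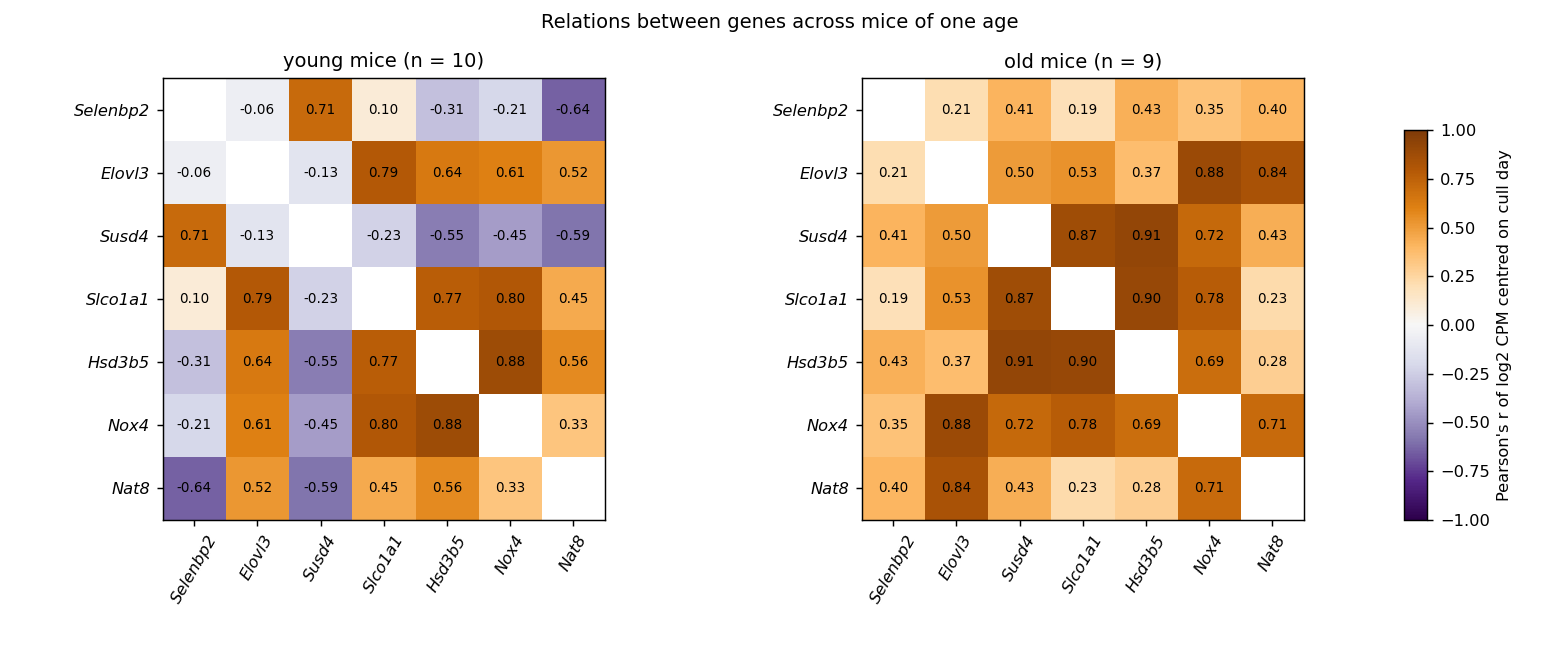
Pearson's r between the 7 genes, on log2 CPM centred on cull day, across the 10 young mice on the left and the 9 old mice on the right. All 21 pairs are above 0 in old mice, against 12 of 21 in young mice, and no pair passed after adjustment. The share among pairs of other genes was not computed.

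Outside the 7 genes, likeness was measured as Pearson's r over all 19 mice after removing the mean of each age on each cull day, over 11060 genes. It is a description, and the mice share their libraries across genes. Elovl3 was most like Abcb10, Ces3a and Ahcy, with r of 0.88 to 0.89. Hsd3b5 was most like Ttc39c at 0.93, Adh6-ps1 at 0.92 and Fastk at 0.86. Slco1a1 was most like Hao1 at 0.88, Serpine2 at 0.88 and Mup21 at 0.86. Selenbp2 was most like Mup20 at 0.82, Aph1c at 0.82 and Gstp1 at 0.81. Susd4 was most like Mup14 at 0.88, Serpina1e at 0.87 and Mup8 at 0.86, and family members with near-identical sequence such as the Mup genes are uncertain. Nat8 was most like Ddc at 0.89, Gchfr at 0.87 and Hsd3b3 at 0.85. Nox4 was most like Cyp2u1 at 0.96, Tsc22d1 at 0.92 and Elmo3 at 0.92, and without young mice 1184, 1186 and 1188 the r of Tsc22d1 was 0.63. The mean of the 7 genes was most like Ces3b at 0.86, Lztr1 at 0.85, Serpine2 at 0.84, and Ppp1r1b and Homer2 at 0.83.

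Of 13 other male-predominant genes tested, 8 fell in old mice and none rose, with a median log2 difference of -0.83, where 14.5% of all genes fell and 16.3% rose. They included Ugt2b1 at -0.90 ± 0.11 (SE, adjusted p = 5.3e-05, edgeR), Ugt2b38 at -0.83 ± 0.11 (adjusted p = 7.6e-05, edgeR), both glucuronosyltransferases, and the fatty acid hydroxylase Cyp4a12b at -1.54 ± 0.26 (adjusted p = 0.000449, edgeR). Nudt7, a coenzyme A hydrolase, fell by 0.92 and Cyp2d9, a steroid hydroxylase, by 0.76 on the log2 scale. Of 19 female-predominant genes 10 passed the filter, and 4 of these rose and none fell, with a median of 1.08, beside the same shares of all genes. Prlr, the prolactin receptor, rose by 1.15, and Ntrk2, a neurotrophin receptor, by 3.21 on the log2 scale. Cyp2b9, with 0 to 3 counts in each young library, was at least 95.0-fold higher in old mice against a floor of 3 counts per library, and at least 43.5-fold higher without old mouse 1181. Atp6v0d2, a proton pump subunit, rose by 1.24 on the log2 scale (adjusted p = 0.0273, edgeR), and had 1.11 without old mouse 1187 (adjusted p = 0.0526, edgeR) and 1.08 without old mouse 1242 (adjusted p = 0.0609, edgeR). With Cyp2b9 at that bound the median was also 1.08.

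Genes of the growth hormone pathway itself are given from the receptor inwards. The receptor Ghr had 446 ± 63.2 CPM in young and 381 ± 65.9 CPM in old mice (SD, n = 10 and n = 9), a log2 difference of -0.23 with an adjusted p of 0.117 in edgeR. For the kinase Jak2 the log2 difference was 0.14, and for the transcription factors Stat5a and Stat5b it was -0.05 and -0.09, none past the threshold. Stat5b had 56.7 ± 11.2 CPM in young and 53.6 ± 7.88 CPM in old mice (SD, n = 10 and n = 9). The secreted products Igf1 and Igfals differed by 0.08 and 0.02, and the feedback inhibitors Socs2, Socs3 and Cish by 0.61, -0.52 and -0.27, also without passing. Bcl6, a repressor that binds STAT5 sites, and Onecut1, which encodes HNF6, differed by -0.86 and -0.54, with adjusted p of 0.167 and 0.357 in edgeR. Hnf4a, a liver transcription factor, fell by 0.30 ± 0.10 on the log2 scale (SE, adjusted p = 0.0268, edgeR). Without old mouse 1240 its log2 difference was -0.28 (adjusted p = 0.0509, edgeR), without young mouse 1188 also -0.28 (adjusted p = 0.0521, edgeR), and without young mice 1184, 1186 and 1188 again -0.28 (adjusted p = 0.0744, edgeR). Socs1 and Cux2 stayed under the filter, with at most 43 and 4 counts in a library.

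In a list of paralogs of the 7 genes, which also holds Cyba, a partner subunit and no paralog, 22 genes were tested, of which 4 rose and 2 fell, with a median log2 difference of -0.03, where 16.3% and 14.5% of all genes did, so these shares lie near those of all genes. Slco1b2, another hepatic anion transporter, fell by 0.41 (adjusted p = 0.00599, edgeR), and Nat8f5, a relative of Nat8, fell by 0.95 (adjusted p = 0.00735, edgeR). Nat8f4 rose by 0.33 on the log2 scale. Susd2 rose by 1.72, and Cybb and Cyba, the catalytic subunit of the phagocyte oxidase and its partner, rose by 2.14 and 2.12, beside the macrophage markers. Without old mouse 1187, in which Cybb was 212 CPM and Cyba 70.6 CPM, the log2 difference was 0.92 for Cybb (adjusted p = 0.0841, edgeR) and 1.14 for Cyba (adjusted p = 0.00587, edgeR). Without young mice 1184, 1186 and 1188 it was 2.31 for Cybb (adjusted p = 0.0506, edgeR). None of the tested Elovl, Hsd3b or Slco1a paralogs passed the threshold. The 24 acute-phase genes had none past the threshold in edgeR, with a median of 0.20. The young mice in that fit include 1184, 1186 and 1188, with mean log2 CPM of 10.1 to 11.0 for these genes. The other 7 young mice had 7.17 to 7.60 and the old mice 7.57 to 9.38, and this list was not compared between ages without the 3 mice.

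**Figure D5:**
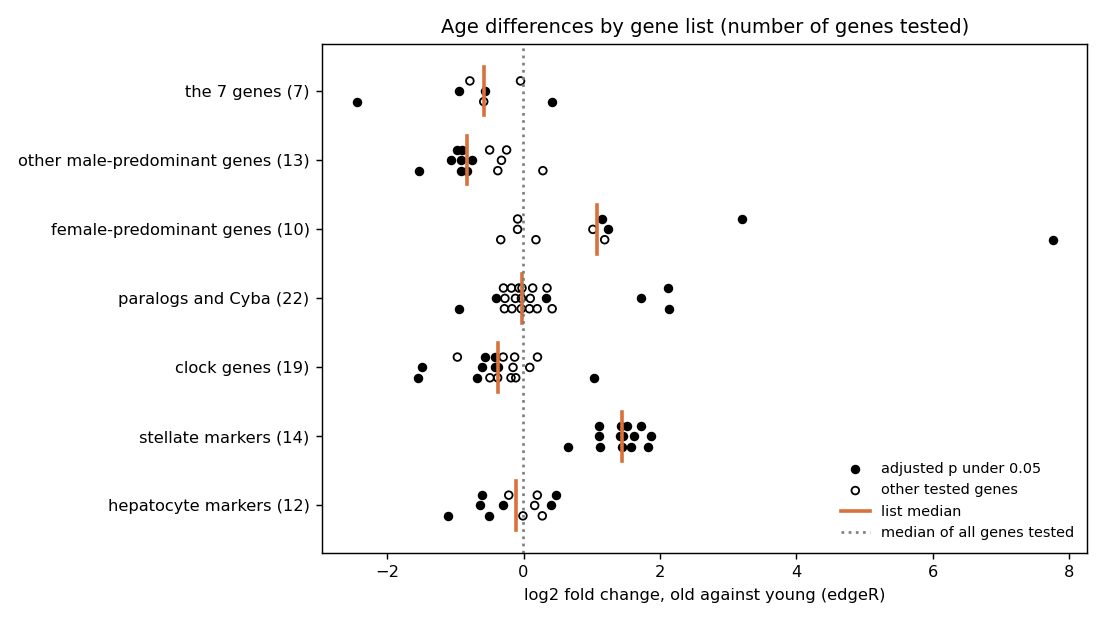
The log2 difference of old against young mice for each tested gene of the 7 and of the lists, with filled points past an adjusted p of 0.05 in edgeR and a line at each list's median. Male-predominant genes lie mostly below 0, and the Cyp2b9 point at 7.76 is a fitted value against young libraries of 0 to 3 counts.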

How the data were processed

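Hepatocyte RNA from 19 libraries was measured by stranded paired-end sequencing with reads of 100 bases, per the labels' protocols. The authors deposited estimated counts per gene for exons of RefSeq transcripts on mm10, written by HOMER per the file headers, with an exon length per gene. STAR and HOMER are named in the submitters' processing notes. Their versions, the strand setting and the handling of reads with several matches were not given in the sources used here. The counts were multiples of 0.5, 29.2% of values were not whole, and they were rounded first, although the tests had been planned for plain counts.

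Groups came from the labels' ages. edgeR 4.0.16 (R 4.3.3) compared ages with TMM scaling, a filter by age with a minimum count of 10, cull day as a covariate and a threshold of 0.05 on the adjusted p. CPM used the scaled totals, and log2 CPM a prior count of 2. Exact permutation tests were two-sided, with mice relabelled within cull days. Scripts were tested on simulated data. Alternatives used DESeq2 1.42.0, limma 3.58.1, other scaling, filters and covariates, single cull days and left-out mice. Leaving out mouse 1187 together with the 3 young mice, keeping counts unrounded, and leaving out mice for genes and markers of other lists were chosen after seeing the data. The floor of 3 counts covers counting error only. Transcript windows and exon overlaps came from GENCODE M21.

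The 7 genes and all lists were chosen with earlier results of these data known. The text names all 7 genes, the tested growth hormone pathway genes except 1 that is not reported here, up to 5 called genes per direction, by smallest p, of the remaining lists other than cell type markers, and the genes most like each of the 7 (3 each, 5 for their mean), without predicted genes. Pitx3, Gm10681, Selenbp1 and single markers were named for shared sequence or family.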

Additional observations from a re-analysis of the deposited data

Results flagged for a closer look

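In 14 groups (7 genes in each age) the highest and lowest mouse were compared with the rest of the group by Dixon's ratio on log2 CPM, and 1 value was past the 95% limit. Slco1a1 in young mouse 1186 was 255 CPM. Its gap to the next young mouse was 0.564 of the range of the young mice. Chance alone passes about 1 in 20 such groups. Mouse 1186 is also the library with the highest acute-phase score, 11.0, and the part of that in its Slco1a1 level was not tested. Without this mouse the log2 difference of Slco1a1 between ages was -0.67 with an adjusted p of 0.0304 in edgeR.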

How the results depend on the processing

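Besides leaving out each mouse, 14 settings were tried, which gives 98 values for the 7 genes, and 78 of them kept direction and side of the threshold. Selenbp2 kept both in all of them and Hsd3b5 stayed on its side in all of them. The log2 difference of Hsd3b5 nevertheless ran from -1.24 in limma-voom with sample weights to -0.03 with the score of other cells' markers. On the first cull day alone the log2 difference was -0.81 for Elovl3, -0.75 for Susd4 and 0.45 for Nat8, none past the threshold. On the second it was -0.35 for Susd4 and 0.37 for Nat8, not past it, and -0.65 for Slco1a1, past it. With the score of other cells' markers in the model it was -0.44 for Elovl3 and -0.56 for Susd4, not past it. Without young mice 1184, 1186 and 1188 it was -0.43 for Susd4 and 0.33 for Nat8, not past it, and -0.76 for Slco1a1, past it. Without these and old mouse 1187 the values were -0.38, 0.35 and -0.67 in that order. Without the cull day term Nat8 had 0.40, and DESeq2 gave -0.60 for Slco1a1, now past it. For Nat8 the exact permutation test without the 3 young mice gave 0.29 (p = 0.117). The cause of these changes was not tested, apart from fewer mice where mice were left out.

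Nox4 turned positive on the second cull day (0.0062), with the other-cell score (0.25), with the acute-phase score (0.033) and in limma-voom (0.016), never past the threshold. Leaving out each mouse in turn gave -0.10 to 0.042 for Nox4, positive without young mice 1180 and 1182, and -0.70 to -0.48 for Slco1a1. The count of genes lower was 3, and 1 on the first cull day alone or with the other-cell score. It was 4, with Slco1a1 added, in DESeq2 and without old mouse 1185, young mouse 1186 or old mouse 1189. On the second cull day alone, without the 3 young mice, and without these and old mouse 1187 it stayed at 3, with Slco1a1 in place of Susd4. The count of genes higher was 1, and 0 without the cull day term, on each cull day alone, without the 3 young mice, and without these and old mouse 1187.

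No paired analysis was possible because library numbers are not shared between the ages. The lowest level of the 7 genes in any mouse was 5.12 CPM, for Hsd3b5. The SD of Hsd3b5 in log2 CPM was 2.19 in old and 0.49 in young mice. With library totals alone as scaling the median of all genes moved from -0.0034 to 0.0419 on the log2 scale.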

Other observations

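Moxd1, a monooxygenase-like gene of the male-predominant list, stayed under the filter because few libraries held it, and it enters no comparison. Its counts were 5679, 4093.5 and 2940 in young mice 1184, 1188 and 1186, 228.5 and 186 in young mice 1235 and 1237, and 35 or fewer in every other young or old mouse. The 5 young mice with over 100 counts were all among the 6 highest young mice for Selenbp2, and these were picked out after their values were seen.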
